A study of Mus musculus with 9 samples.

Results

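Arms of 3 miRNA hairpins that are known from skin, miR-203, miR-205 and miR-31, were followed in small RNA libraries of subcutaneous adipose tissue, the fat that lies under the skin. They were picked by name, and 5 arms were listed among the 860 mature miRNAs of each library: miR-203-3p, miR-203-5p, miR-205-5p, miR-31-5p and miR-31-3p. The choice was made with earlier results of these libraries known, in which miR-203-3p was higher in both knockout genotypes than in wild type. The levels of miR-203-3p in those 2 comparisons are therefore given as a description, and the contrast between the knockouts was not used in the choice.

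The study compared adipose small RNAs between WT mice and mice with an endothelial knockout of AGO1. AGO1 is an Argonaute protein that carries mature miRNAs to their targets. The 9 libraries came from single mice: 3 with a homozygous knockout (Homo KO), 3 with a heterozygous knockout (Hete KO) and 3 WT littermates. Hete KO mice keep an intact allele, so Homo KO minus Hete KO compares allele doses. Every mouse was aged 24 weeks and, from 8 weeks of age, had been kept for 16 weeks on food rich in fat and sucrose. The sources used here do not give the promoter that drove the knockout, the mouse strain, the exact subcutaneous site or the sex. Values are on a log2 scale on which every library has nearly the same set of ranked levels, so a difference is a shift in rank within a library, and the number of reads is unknown. The mural and stromal miR-143-3p ranked first or second and the endothelial miR-126a-3p ranked 9 to 13 in the 9 libraries. No miRNA list that defines adipocytes was used, so the tissue label was checked no further. In whole tissue, fewer cells of a type and less RNA per cell cannot be told apart.

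miR-203 is abundant in the upper, differentiating layers of the epidermis, where it represses the stem cell factor p63 (Trp63) and so limits renewal. miR-205 belongs to the basal layer of stratified and mammary epithelium and, together with the miR-200 family, represses Zeb1 and Zeb2, which drive the loss of epithelial character. miR-31 is raised in growing hair follicles and healing wounds, and in cultured human vessel cells it represses the lymphatic factor PROX1. Mouse miR-203 has also been described in brown fat, where it was reported with miR-182 as needed for brown adipocyte development.

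The mature sequences are shown because each arm has its own seed, the bases 2 to 8 that pair with targets, given in capitals. They are from RefSeq, build GRCm38.p6, which is the assembly that the mm10 build of the study names.
miR-203-3p: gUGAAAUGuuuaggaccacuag
miR-203-5p: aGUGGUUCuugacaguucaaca
miR-205-5p: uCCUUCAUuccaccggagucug
miR-31-5p: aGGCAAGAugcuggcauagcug
miR-31-3p: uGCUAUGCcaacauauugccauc
Among the 698 measured miRNAs that matched a RefSeq sequence, no other shared any of these 5 seeds. The arms are 22 or 23 bases long. Levels of different arms are compared as deposited, and the joining of adapters is known to favour some small RNA ends over others.

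The hairpins lie apart in the genome. Mir203 is on chromosome 12 (GRCm38, 112130880 to 112130955, plus strand), outside any other gene annotated in GENCODE M21, 3320 bases beyond the end of Aspg and 15252 bases before Kif26a. Mir205 is on chromosome 1 (193507463 to 193507530, minus strand) within an exon of 4631405K08Rik, a long noncoding RNA on the same strand. Mir31 is on chromosome 4 (88910557 to 88910662, minus strand) within an exon of AL805899.1, also a long noncoding RNA on the same strand.

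The 5 arms stood at very different levels. miR-203-3p, the guide strand of its hairpin, was the only one of them among the 100 most abundant miRNAs, at rank 60 to 85 and 0.050% to 0.116% of the summed level of a library. miR-31-5p ranked 242.5 to 375 (tied levels share a mean rank) and miR-205-5p 195 to 626.5. The minor arms miR-203-5p and miR-31-3p ranked 410.5 to 606.5 and 447.5 to 784.5. Of the 5 arms, 4 passed the filter on low values (a mean of at least 3.46, which is log2(10 + 1), and a value above the library's lowest in at least 3 libraries), and miR-31-3p did not. The level of miR-203-3p was between 17.3-fold and 2042-fold that of miR-205-5p in the 9 libraries. In Hete KO replicate 3 the basal keratinocyte marker miR-205-5p ranked 626.5 while miR-203-3p ranked 60. No skin sample is among the libraries, so the arms are called by their names below and not by a cell type.

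**Figure D1:**
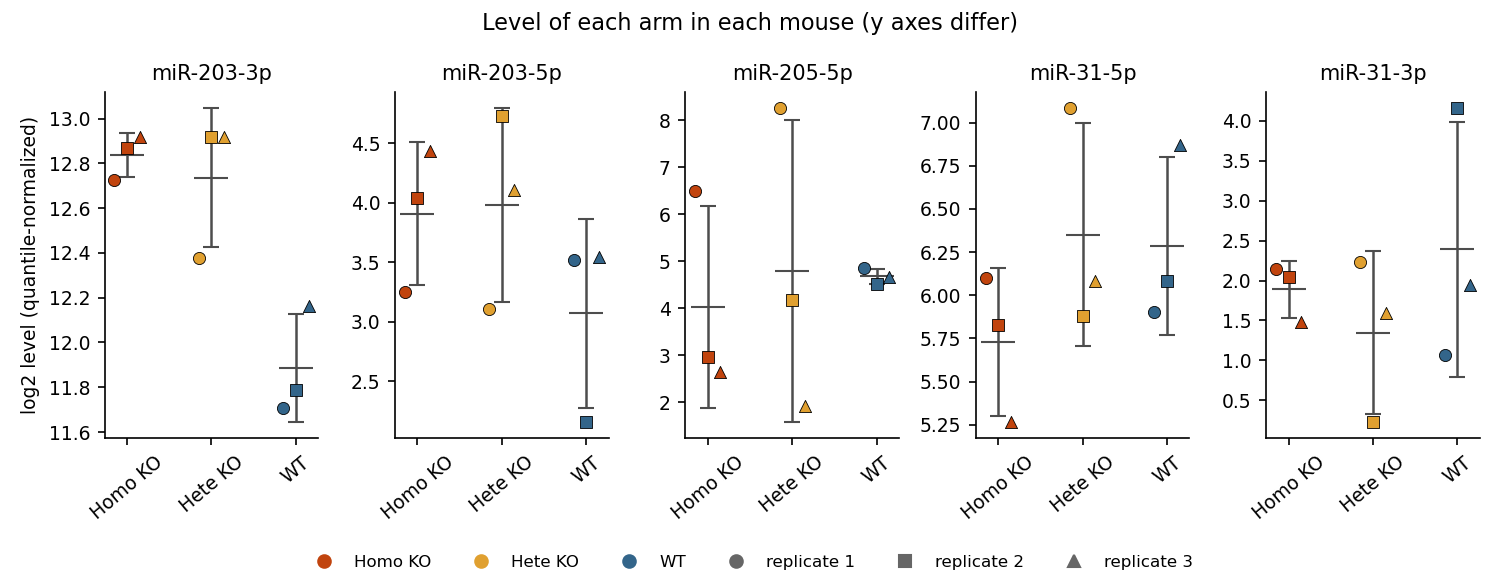
Level of each arm (log2, quantile-normalized, a separate y axis for each arm) in the 3 mice of each genotype, with the mean and SD as bars. miR-203-3p was at 12.38 or above in the 6 knockout mice and at 12.16 or below in the 3 WT mice, whereas miR-205-5p spread from 1.92 to 8.26 in the knockouts and stayed between 4.52 and 4.85 in WT.

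miR-203-3p was higher in both knockout genotypes than in WT, by close to 1 log2 unit. Its level was 12.73, 12.87 and 12.92 in Homo KO replicates 1, 2 and 3, 12.38, 12.92 and 12.92 in Hete KO, and 11.71, 11.79 and 12.16 in WT. No knockout mouse overlapped a WT mouse, and the 2 knockout genotypes overlapped each other. The value 12.92 in Hete KO replicates 2 and 3 and in Homo KO replicate 3 is the same shared level, that of rank 60, against ranks 76 to 85 in WT. The mean was 12.84 ± 0.10 in Homo KO, 12.74 ± 0.31 in Hete KO and 11.89 ± 0.24 in WT (SD, n = 3 each).

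Homo KO minus WT was 0.95 ± 0.18 for miR-203-3p (SE), a 1.93-fold level with a 95% interval of 1.45 to 2.57. It was the 1 arm called of the 4 tested (limma, Benjamini-Hochberg adjusted p under 0.05 over 489 miRNAs), beside 3.27% of the 489 called in either direction, and since this contrast chose it nothing is read from that count. All 3 Homo KO mice lay above all 3 WT mice for 18.4% of the 489. Hete KO minus WT was 0.85 ± 0.18, a 1.80-fold level with an interval of 1.36 to 2.40. Of the 4 arms 0 were called in Hete KO against WT, beside 0.409% of the 489 (2 miRNAs, and 77 at an unadjusted p under 0.05), and all 3 Hete KO mice lay above all 3 WT mice for 8.59%. Both comparisons use the same WT mice.

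The call in Homo KO did not survive the loss of several single libraries: it ended without any of the 3 Homo KO mice, without WT replicate 1 or 2, or without Hete KO replicate 3. The difference itself stayed between 0.86 and 1.09 when each library was left out in turn, and leaving out a Hete KO mouse cannot change it. Leaving out Hete KO replicate 1 or WT replicate 3 brought miR-203-3p in Hete KO past the threshold, with differences of 1.03 and 0.99.

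Between the knockouts no difference was detected for any of the arms (limma, 0 called of the 4 tested, against 0% of the 489, of which 41 had an unadjusted p under 0.05). Homo KO minus Hete KO was 0.10 ± 0.18 for miR-203-3p (SE, adjusted p = 0.949), with a 95% interval of the fold from 0.806 to 1.43. For miR-31-5p it was -0.62 ± 0.38 (adjusted p = 0.735), for miR-205-5p -0.76 ± 1.48 and for miR-203-5p -0.07 ± 0.56. The intervals of miR-205-5p (-4.09 to 2.58) and miR-203-5p (-1.33 to 1.19) reach beyond a 2-fold change in both directions. With another covariate or without single libraries the sign changed for miR-203-3p, miR-203-5p and miR-205-5p.

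miR-203-5p is the passenger strand, cut from the same hairpin as miR-203-3p and then mostly degraded. It was at 3.25, 4.04 and 4.44 in Homo KO replicates 1, 2 and 3, at 3.11, 4.73 and 4.11 in Hete KO, and at 3.52, 2.16 and 3.54 in WT. The genotypes overlapped. In the main comparison its difference from WT was near that of the guide strand but with a wider error. It was 0.84 ± 0.56 in Homo KO and 0.91 ± 0.56 in Hete KO (SE). Neither was called (limma adjusted p = 0.399 and 0.456). With each library left out in turn it ran from 0.38 to 1.17 in Homo KO and 0.45 to 1.35 in Hete KO. Both lowest values came without WT replicate 2, where the guide strand was at 0.90 and 0.80. With 10 in place of 1 added before log2, miR-203-5p was at 0.45 and 0.51, and the guide strand at 0.95 and 0.85. The gap between the arms was 8.93 ± 0.50 in Homo KO, 8.75 ± 0.54 in Hete KO and 8.81 ± 0.74 log2 units in WT (SD, n = 3 each), and the genotypes overlapped. Levels as low as those of miR-203-5p are shared by 3 to 26 miRNAs of a library, and fold changes there are understated on the log2(x + 1) scale.

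For miR-205-5p no difference between genotypes was detected. Its level was 6.49, 2.95 and 2.63 in Homo KO replicates 1, 2 and 3, 8.26, 4.16 and 1.92 in Hete KO, and 4.85, 4.52 and 4.66 in WT. The 2 highest and the 4 lowest levels were all in knockout mice, and the WT mice lay close together between them. Its SD within genotypes was 2.23, larger than that of all but 8 of the 489 miRNAs, against a median of 0.42 among the 129 miRNAs within 1 log2 unit of its mean level. Homo KO minus WT was -0.65 ± 1.48 and Hete KO minus WT was 0.11 ± 1.48 (SE, limma adjusted p = 0.790 and 0.983). The Homo KO difference lay at 0.05 ± 1.59 once the level of muscle miRNAs was a covariate, so no direction is given for it.

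miR-31-5p, the guide strand of miR-31, was at 6.10, 5.83 and 5.26 in Homo KO replicates 1, 2 and 3, at 7.09, 5.88 and 6.08 in Hete KO, and at 5.90, 6.09 and 6.87 in WT. The genotypes overlapped. Homo KO minus WT was -0.56 ± 0.38 and Hete KO minus WT was 0.06 ± 0.38 (SE, limma adjusted p = 0.411 and 0.949). The 95% interval of the fold was 0.376 to 1.23 in Homo KO and 0.578 to 1.89 in Hete KO. The passenger arm miR-31-3p was at 2.14, 2.04 and 1.48 in Homo KO, at 2.23, 0.22 and 1.59 in Hete KO and at 1.06, 4.16 and 1.94 in WT replicates 1, 2 and 3. Its level of 0.22 in Hete KO replicate 2 was the lowest of that library, shared by 152 miRNAs.

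**Figure D2:**
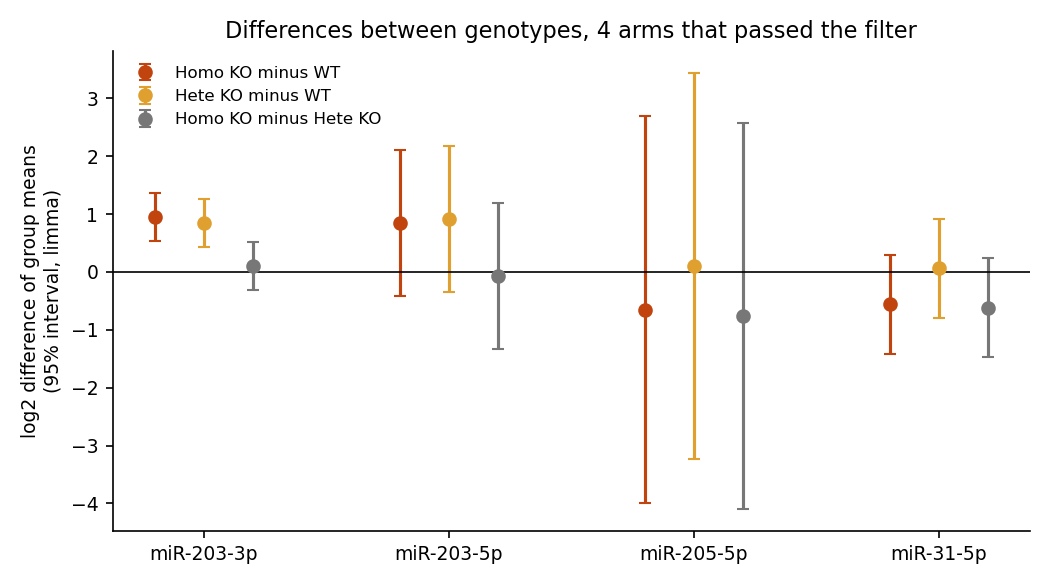
Difference of group means (log2) for the 4 arms that passed the filter, with 95% intervals from limma, for Homo KO minus WT, Hete KO minus WT and Homo KO minus Hete KO. The intervals of miR-203-3p against WT lie above 0 (0.54 to 1.36 in Homo KO, 0.44 to 1.26 in Hete KO), and those of the other 3 arms include 0.

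Whether miR-203-3p moved with skin or epithelial content was examined across the 9 mice. The library with the most epithelial miRNA was Hete KO replicate 1: the mean of the 5 miR-200 family 3p arms was 8.43 there and 4.61 to 5.71 in the other 8 libraries. miR-205-5p and miR-31-5p were both at their highest in that library, at 8.26 and 7.09, whereas miR-203-3p was at its lowest among the 6 knockout mice. Hete KO replicate 3 had miR-205-5p at its lowest, 1.92, and miR-203-3p at the shared highest level of 12.92.

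**Figure D3:**
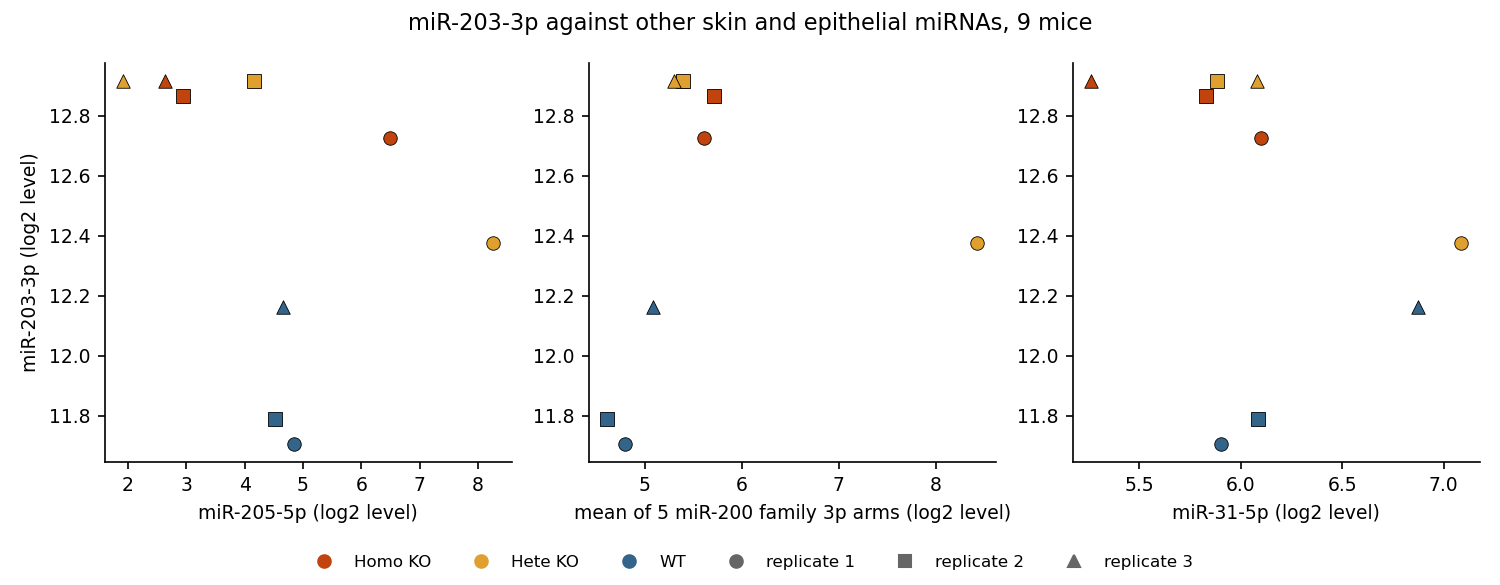
miR-203-3p (y axis, log2 level) against miR-205-5p, the mean of 5 miR-200 family 3p arms and miR-31-5p (x axes, log2 level) in 9 mice, coloured by genotype with a symbol for each replicate. The library with the highest value on all 3 x axes, Hete KO replicate 1, had a lower miR-203-3p level (12.38) than the other 5 knockout mice.

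Over the 9 libraries, miR-203-3p had a Pearson r of -0.37 with miR-205-5p (Spearman rho -0.68; exact permutation p = 0.324 and 0.0537; adjusted p = 0.404 and 0.107 over 8 relations). With miR-31-5p r was -0.35 (rho -0.51; exact permutation p = 0.353 and 0.169; adjusted p = 0.404 and 0.270). Without the 2 libraries farthest from the median of the x measure, r was -0.35 with miR-205-5p and -0.25 with miR-31-5p. These pooled values contain the difference between genotypes by which miR-203-3p was chosen. In deviations from the genotype means, which do not, r was -0.73 with miR-205-5p (exact permutation within genotypes, p = 0.0463, adjusted p = 0.269) and -0.29 with miR-31-5p (p = 0.481, adjusted p = 0.481). Neither relation passed after correction, and without Hete KO replicate 1 the deviations had r = -0.34 with miR-205-5p and 0.49 with miR-31-5p (exact permutation p = 0.139 and 0.472).

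The relation with the miR-200 family differed with and without 1 library, Hete KO replicate 1. Pearson r was 0.21 over 9 libraries (rho 0.46; exact permutation p = 0.693 and 0.221; adjusted p = 0.693 and 0.295) and 0.89 over 8, without that library (exact permutation p = 0.00551, adjusted p = 0.0440). Without the 2 libraries farthest from the median, Hete KO replicate 1 and WT replicate 2, it was 0.85 (exact permutation p = 0.0202, adjusted p = 0.162). In deviations from the genotype means r was -0.70 with Hete KO replicate 1 (exact permutation p = 0.25, adjusted p = 0.333) and 0.54 without it (p = 0.472, adjusted p = 0.759). Without that library only 72 permutations within genotypes exist, so p could not fall below 0.0139. That is too few for 1 relation alone to pass the correction over 8 relations.

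miR-203-3p and its passenger arm had r = 0.74 (rho 0.80; exact permutation p = 0.0202 and 0.0153; adjusted p = 0.0809 and 0.0983), and r = 0.57 without the 2 libraries farthest from the median. With the miR-183 cluster, of hair follicles and sensory epithelia, r was 0.72 (rho 0.75; exact permutation p = 0.0162 and 0.0281; adjusted p = 0.0809 and 0.0983), and 0.57 without the farthest 2. Within genotypes these were 0.69 and 0.49 (exact permutation p = 0.130 and 0.204; adjusted p = 0.269 and 0.326). With miR-31-3p r was -0.45 (rho -0.39; exact permutation p = 0.243 and 0.302; adjusted p = 0.388 and 0.346), and 0.37 without the farthest 2.

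miR-205-5p was set against the same measures, a comparison added after the data were seen. Its r was 0.64 with the miR-200 family (rho 0.18; exact permutation p = 0.0809 and 0.644; adjusted p = 0.162 and 0.644) and 0.68 with miR-31-5p (rho 0.72; exact permutation p = 0.0429 and 0.0369; adjusted p = 0.114 and 0.0983). Without the 2 libraries farthest from the median these fell to -0.12 and 0.20, and without Hete KO replicate 1 they were -0.18 and 0.39. In deviations from the genotype means they were 0.79 and 0.70 (exact permutation within genotypes, p = 0.120 and 0.134, adjusted p = 0.269 for both). Without Hete KO replicate 1 the deviations had r = 0.23 and 0.36.

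The contrasts that chose miR-203-3p were also fitted with skin miRNAs as a covariate, as a description. With miR-205-5p as a covariate, Homo KO minus WT of miR-203-3p was 0.90 ± 0.15 and Hete KO minus WT 0.86 ± 0.15 (SE). With the mean of the miR-200 family 3p arms as a covariate, they were 1.07 ± 0.16 and 1.09 ± 0.19, beside 0.95 and 0.85 with no covariate. That mean was 8.43 in Hete KO replicate 1 and at most 5.71 elsewhere. In deviations from the genotype means its r with miR-203-3p was -0.70 with that library and 0.54 without it. No fit with this covariate was made without that library. The part of skin content in the difference was not tested beyond these values.

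The other epithelial miRNAs did not pass the test in either knockout. All 5 miR-200 family arms tested had positive differences in Homo KO, with a median of 0.64, and in Hete KO, with a median of 1.49, against medians of 0.07 and -0.02 over all 489 miRNAs. Positive differences over all 489 numbered 269 in Homo KO and 231 in Hete KO. Of the 5, 0 were called in either comparison, beside 3.27% of the 489 in Homo KO and 0.409% in Hete KO. The Hete KO median was 0.50 without Hete KO replicate 1, with the 5 differences between 0.0066 and 1.02. The Homo KO median was 0.37 without WT replicate 2, with 4 of the 5 differences positive. Its 2 most abundant arms, miR-200a-3p and miR-200c-3p, were at 6.53 ± 0.15 and 6.12 ± 0.23 in Homo KO, 7.47 ± 1.73 and 6.95 ± 1.70 in Hete KO, and 5.83 ± 0.35 and 5.48 ± 0.57 in WT (SD, n = 3 each). The summed level of the 7 listed family arms ran from 7.98 to 8.27 in Homo KO, 7.78 to 10.998 in Hete KO and 7.09 to 7.68 in WT (log2). Each knockout mouse was above each WT mouse, in Hete KO by a margin of 7.78 against 7.68, and single miRNAs lay this way for 18.4% of the 489 in Homo KO and 8.59% in Hete KO. The 5p arms miR-200a-5p and miR-200b-5p were at the lowest value in 4 libraries each.

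In the miR-183 cluster all 3 arms had positive differences, beside 269 of the 489 miRNAs in Homo KO and 231 in Hete KO. The cluster's median was 0.49 in Homo KO and 0.48 in Hete KO, and 0 of 3 arms were called, beside 3.27% and 0.409% of the 489. Its most abundant arms, miR-182-5p and miR-183-5p, had Homo KO minus WT differences of 0.17 ± 0.20 and 0.49 ± 0.27 (SE). Their Hete KO minus WT differences were 0.48 ± 0.20 and 0.60 ± 0.27 (SE). Without WT replicate 2 the cluster median was 0.21 in Homo KO and 0.33 in Hete KO, with 2 of 3 arms positive in Hete KO. Without Hete KO replicate 2, 2 of 3 arms were also positive in Hete KO. miR-211-5p, which melanocytes make, was at 8.34 ± 0.30 in Homo KO, 8.09 ± 0.56 in Hete KO and 8.19 ± 0.24 in WT (SD, n = 3 each), with no difference called.

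Of the 488 other tested miRNAs, 10 had a Pearson r over 0.9 with miR-203-3p across the 9 libraries. The 5 most alike were miR-339-3p (r = 0.97), miR-130a-3p (0.96), which represses Pparg, the master factor of adipocytes, miR-101c (0.96), let-7k (0.96) and miR-664-3p (0.95). In deviations from the genotype means their r was 0.84 to 0.97. miR-101c and let-7k belong to families of nearly identical members and may share reads with them. In this order of 488, miR-183-5p was 41st, miR-203-5p 48th, miR-96-5p 116th and miR-182-5p 120th. The miR-200 family 3p arms stood between 140th and 269th, miR-31-5p was 355th and miR-205-5p 365th. The order rests on pooled r, which contains the genotype difference that chose miR-203-3p, so a miRNA that is higher in the knockouts stands high in it.

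Different miRNAs were most alike to the other 2 guide strands. For miR-205-5p they were miR-495-3p (r = 0.89), miR-411-5p (0.87) and miR-501-3p (0.85), and for miR-31-5p miR-668-3p (0.90), miR-501-3p (0.84) and miR-376c-3p (0.81). Several of these come from the imprinted Dlk1-Dio3 cluster, and miR-501-3p was on both lists. These r are over 9 libraries that share a normalization, and are a description.

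**Figure D4:**
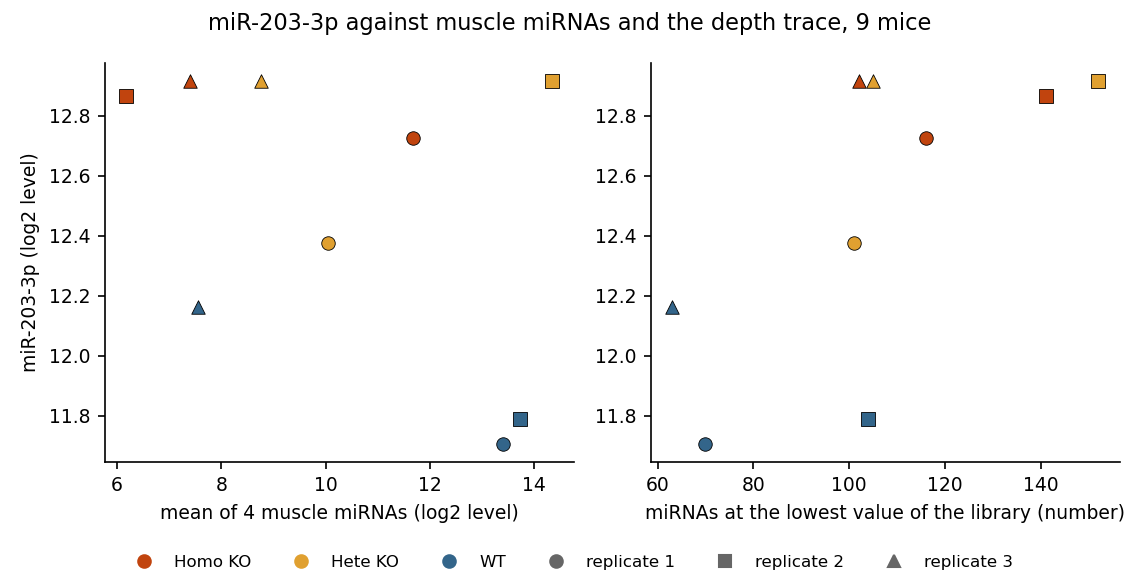
miR-203-3p (y axis, log2 level) against the mean of 4 muscle miRNAs (left, log2 level) and how many miRNAs sat at their library's floor (right, number) in 9 mice. WT replicates 1 and 2 combined a muscle mean above 13 with the lowest miR-203-3p, whereas Hete KO replicate 2 had the highest muscle mean, 14.35, with miR-203-3p at 12.92.

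Summed levels of other cell types' miRNAs were also compared between the groups. The summed level of the 2 endothelial arms (miR-126a) ran from 17.64 to 17.77 in Homo KO, 17.10 to 17.74 in Hete KO and 17.81 to 18.20 in WT. That of 3 erythroid miRNAs ran from 13.02 to 13.4796 in Homo KO, 12.14 to 13.46 in Hete KO and 13.4845 to 14.15 in WT. Every knockout mouse was below every WT mouse in both sums. Single miRNAs lay this way for 14.3% of the 489 in Homo KO and 8.59% in Hete KO. The erythroid margin in Homo KO was 13.4796 against 13.4845 in WT. Of the 3 erythroid miRNAs, 2 had a negative difference in Homo KO and 3 in Hete KO. The mean of miR-144-3p was 9.39 in Homo KO and 9.25 in WT. Limma called 0 of the 2 endothelial and 0 of the 3 erythroid miRNAs in either knockout. The share called over the 489 was 3.27% in Homo KO and 0.409% in Hete KO. For 5 leukocyte miRNAs summed levels were 14.35 to 14.67 in Homo KO, 13.76 to 14.22 in Hete KO and 13.89 to 14.20 in WT. All 3 Homo KO mice lay above all 3 WT mice, as they did for 18.4% of the 489 single miRNAs. Of the 5, 4 had a positive difference in Homo KO, with 1 called. In Hete KO 3 were positive, with 0 called. Over all 489, 269 differences were positive and 220 negative in Homo KO, and 231 and 257 in Hete KO. The part of these cell types in the difference of miR-203-3p was not tested.

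Muscle miRNAs and a possible trace of depth were set against miR-203-3p. The mean of 4 skeletal muscle miRNAs was 11.68, 6.17 and 7.40 in Homo KO replicates 1, 2 and 3, 10.04, 14.35 and 8.76 in Hete KO, and 13.40, 13.73 and 7.56 in WT. All 4 of these miRNAs are in the files and were tested, and their summed level ran from 11.57 to 16.35 in Homo KO, 14.28 to 20.10 in Hete KO and 12.24 to 19.19 in WT. With the muscle mean as a covariate the Homo KO difference of miR-203-3p was 0.86 ± 0.20 (SE) and was no longer called, and with the muscle miRNAs left out before ranking it was 0.88 ± 0.17 and was called. Without the 3 muscle-rich libraries (Hete KO replicate 2, WT replicates 1 and 2), which leaves WT with 1 mouse assumed to vary like the others, it was 0.67 ± 0.23 in Homo KO and 0.48 ± 0.24 in Hete KO, and neither was called. The count of miRNAs at the floor of their library, which may trace depth, was 116, 141 and 102 in Homo KO, 101, 152 and 105 in Hete KO and 70, 104 and 63 in WT. With that number as a covariate the differences were 0.90 ± 0.25 and 0.80 ± 0.25, and limma called 0 of the 489 miRNAs in either comparison (101 in Homo KO and 64 in Hete KO had an unadjusted p under 0.05). The part of muscle and depth in the difference of miR-203-3p was not tested beyond these values.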

How the data were processed

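RNA was extracted with Trizol and made into TruSeq small RNA libraries, per the labels' protocols, and the genome build was mm10, per the submitters' processing notes. The sources used here name no aligner, counter, annotation or normalization method. The deposited values are on a log2 scale (0 to 19.99, the same maximum in all 9 libraries), although their name speaks of FPKM. They appear to be quantile-normalized log2(x + 1) values, since back-transformed values sum to 6681250 to 6681290 in every library. Depth is therefore unknown and no counting interval is given.

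No pseudocount was added. Of 860 miRNAs, 489 passed the filter given above. Differences of group means come from limma 3.58.1 (R 4.3.3): 1 linear model over all 9 libraries without covariates, and moderated variances with a trend on level. P-values were adjusted by Benjamini-Hochberg over all 489, with a threshold of 0.05. Relations between arms were tested by exact two-sided permutation over libraries (Python 3.11.15, numpy 2.4.6). Steps were tested on simulated data. The members, lists and the rule for naming miRNAs (all members, the 2 most abundant of each skin list, and the 5 or 3 most alike by Pearson r) were chosen with earlier results of these data known. No block was used in the main comparison. Alternatives were another added constant, other filters and scalings, covariates, the replicate block and each library left out. Medians of the skin lists without single libraries were added after seeing the data.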

Additional observations from a re-analysis of the deposited data

How the results depend on the processing

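Over 23 alternatives miR-203-3p stayed above WT in both knockouts, by 0.67 to 1.09 in Homo KO and 0.48 to 1.09 in Hete KO. These contrasts chose miR-203-3p, so the ranges are a description. Several alternatives cannot change a difference of group means: other filters, no variance trend, the replicate block and only the groups compared. Nor can leaving out a mouse of the genotype not compared. The lowest values, 0.67 and 0.48, came without the 3 muscle-rich libraries (chosen after seeing the data), and 1.09 in Hete KO came with the miR-200 family mean as a covariate. In Homo KO, 1 arm was called in 14 alternatives and 0 with the muscle mean or the number at the lowest value as a covariate and without the 3 muscle-rich libraries. Leaving out single libraries gave 0 to 1, with differences of 0.86 to 1.09 and adjusted p of 0.0126 to 0.120. In Hete KO, 1 arm was called with the stricter filter, the replicate block, miR-205-5p or the miR-200 family mean as a covariate, and 0 to 1 without single libraries (differences of 0.76 to 1.03). Against WT, over all 489 miRNAs, calls ran from 0 to 28 in Homo KO (16 in the main comparison) and from 0 to 24 in Hete KO (2), and were 25 and 15 with the replicate block. No source used here says whether the numbers pair the mice. Deviations of same-numbered libraries had r of -0.28 to 0.55, over 0.1 in 5 of 9 pairs. Of 18 library comparisons, 8 correlated best with their own number. With so few libraries these values cannot decide it.

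For Homo KO minus Hete KO signs changed without any call. miR-203-3p was at -0.027 with the miR-200 family mean as a covariate and between -0.080 and 0.19 without single libraries. miR-205-5p was at 0.61 with that covariate and between -2.19 and 0.98 without single libraries. miR-203-5p was at 0.30 without the muscle-rich libraries and between -0.51 and 0.30 without single ones. The r of miR-203-3p with the miR-200 family was -0.70 in deviations from genotype means and 0.89, pooled over genotypes, without Hete KO replicate 1. With miR-31-3p it was 0.37 without the 2 farthest libraries, and with miR-31-5p 0.49 in deviations without Hete KO replicate 1. The r of miR-205-5p with the miR-200 family was -0.12 without the 2 farthest libraries and -0.18 without Hete KO replicate 1. The causes of these shifts were not tested. With 3 mice a group, and ranks in place of reads, precision was low for the rare arms: SEs of the differences were 0.56 for miR-203-5p and 1.48 for miR-205-5p.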
